A study of Homo sapiens with 16 samples.

Results

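The mRNAs described here encode proteins of nuclear speckles (SRRM1, SRRM2, SON and PNISR) and kinases that phosphorylate splicing factors (CLK1, CLK2, CLK3, CLK4, SRPK1 and SRPK2). They were taken by gene name, and all 10 were found once among the 16324 genes of each of 2 tables of comparisons made by the authors. Nuclear speckles are bodies in the nucleus that hold splicing factors with stretches of alternating serine and arginine, called SR proteins. SON and SRRM2 form their core. CLK kinases phosphorylate SR proteins in the nucleus and release them from speckles, whereas SRPK kinases act largely in the cytoplasm and promote import of SR proteins into the nucleus. Several transcripts of this group, those of CLK1 and CLK4 among them, are known to keep introns and to remain in the nucleus until these are removed.

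The study sequenced RNA bound by tagged proteins (RIP-seq) in cells labelled UM-SCC-1, a cell line established from a squamous carcinoma of the head and neck. Cells carried a lentiviral construct for Strep-tagged ALKBH5, a nuclear demethylase that erases m6A, a methyl mark on RNA, for Strep-tagged RBM33, an RNA-binding protein, or for the tag vector alone (Vec), and all were selected with puromycin. Pull-down with StrepTactin-XT gave 3 libraries for ALKBH5, 2 for RBM33 and 3 for Vec. Input RNA gave 3 libraries for ALKBH5, 2 for RBM33 and 3 for Vec, which makes 16 libraries in 6 groups. The tagged proteins were added to cells that still had their own copies, and nothing in the labels says whether replicates were separate cultures, so p-values may measure technical spread only.

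For each gene the files hold a log2 fold change, an F statistic, p-values and an average log2 CPM (read counts scaled to library size). They hold no value for any library, so depth per library is unknown here. Neither the 2 groups compared nor the direction of the ratio is stated, and both tables carry the label siCtrl, which no sample title has. Values are therefore called positive or negative as the authors' deposited tables give them, and nothing here says which arm held more RNA. The bait mRNAs had positive values in their own comparisons of the authors' deposited tables, at 1.28 for ALKBH5 and 3.41 for RBM33, but both pull-down and input of a bait line carry the overexpressed bait. The mRNA of the other bait had 1.17 (RBM33 mRNA, adjusted p = 7.1e-06) for ALKBH5 and -0.21 (ALKBH5 mRNA, adjusted p = 0.245) for RBM33, per the authors' deposited tables. The cell line label was not borne out by markers: of 6 squamous epithelial markers 5 (KRT5, KRT14, KRT17, TP63 and EPCAM) were not listed, and CDH1 was near the bottom, with average log2 CPM of 0.60 and 0.33 in the authors' deposited tables for ALKBH5 and RBM33. The neurofilament mRNAs NEFL and NEFM were looked up as markers of embryonic kidney lines. They had 8.10 and 7.72 in the ALKBH5 comparison and 7.42 and 7.18 in the RBM33 comparison of the authors' deposited tables. These mRNAs alone do not establish which cells were used.

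Most of the 10 mRNAs were positive in both comparisons, with 3 exceptions: SRPK1, SRRM1 and SRPK2 had values below 0, of which those of SRRM1 and SRPK2 were small. CLK3 was above 0 in both but passed the test only for RBM33 in the authors' deposited tables. At an adjusted p under 0.05, the authors' deposited table for ALKBH5 called 6 of the 10 positive, 2 negative and 2 neither. Over all genes of that table the authors' adjusted p called 30.5% positive and 29.1% negative. The authors' deposited table for RBM33 called 7 positive, 1 negative and 2 neither, against 24.0% positive and 27.0% negative over all its genes. Counting calls of at least 1 log2 unit left 6 positive and 1 negative mRNA for ALKBH5 in the authors' deposited table, against 21.0% and 16.2% of all genes. For RBM33 that rule left 6 positive and 0 negative of the 10 in the authors' deposited table (edgeR; 1 was negative at an unadjusted p under 0.05), against 17.1% and 16.7% of all genes. At an adjusted p under 0.01 there were 6 positive and 1 negative for ALKBH5 (24.4% and 23.6% of all genes) and 7 positive and 1 negative for RBM33 (16.6% and 21.0%) in the authors' deposited tables. The median log2 fold change of the 10 was 1.50 for ALKBH5 and 1.19 in the RBM33 comparison of the authors' deposited tables, beside 0.03 and -0.02 over all genes. Errors are approximate standard errors worked out here from each deposited log2 fold change and its F statistic, and intervals are the matching 95% intervals. In this group the errors ran from 0.12 to 0.25 for ALKBH5 and from 0.15 to 0.29 for RBM33.

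**Figure D1:**
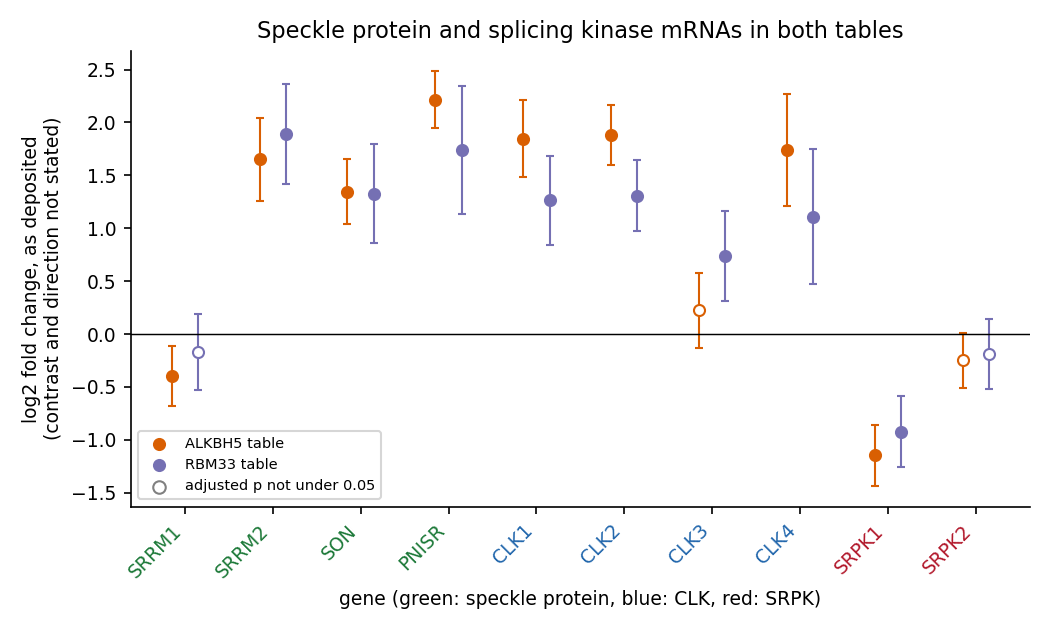
Log2 fold change (vertical axis, as deposited, direction not stated) of the 10 mRNAs, with the ALKBH5 comparison left of the RBM33 comparison for each gene; bars are approximate 95% intervals and open circles mark an adjusted p that is not under 0.05. SRRM2, SON, PNISR, CLK1, CLK2 and CLK4 lie above 1 in both comparisons, CLK3 lies lower, and SRRM1, SRPK1 and SRPK2 lie below 0.

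Among the speckle proteins, SRRM2, SON and PNISR were positive in both comparisons. PNISR, a serine and arginine rich partner of the splicing regulator PNN, had the highest value of the 10 for ALKBH5. It lies on the minus strand of chromosome 6 (99398050 to 99425331, hg38; ENSG00000132424). Its log2 fold change was 2.21 ± 0.12 (approximate SE; authors' deposited table for ALKBH5, adjusted p = 1.99e-08), a 4.64-fold difference. In the RBM33 comparison of the authors' deposited tables PNISR had 1.74 ± 0.27 (adjusted p = 0.000528), a 3.35-fold difference. SRRM2 encodes a very large serine and arginine rich protein and lies on the plus strand of chromosome 16 (2752626 to 2772538; ENSG00000167978). SRRM2 was the highest of the 10 for RBM33, at 1.89 ± 0.22 (adjusted p = 3.62e-05), and stood at 1.65 ± 0.18 for ALKBH5 (adjusted p = 4.54e-06) in the authors' deposited tables. The highest value thus belonged to PNISR for ALKBH5 and to SRRM2 for RBM33. For ALKBH5, CLK2 (1.88), CLK1 (1.85) and CLK4 (1.74) also lay above SRRM2 in the authors' deposited table. The intervals of PNISR and SRRM2 overlapped in the RBM33 comparison (1.13 to 2.35 for PNISR, 1.42 to 2.37 for SRRM2). They overlapped narrowly in the ALKBH5 comparison (1.95 to 2.48 and 1.26 to 2.04) of the authors' deposited tables.

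SON binds RNA and DNA and is needed for efficient splicing of weak splice sites. Its gene is on the plus strand of chromosome 21 (33543038 to 33577481; ENSG00000159140). The authors' deposited tables gave SON almost the same value for both baits, 1.34 ± 0.14 for ALKBH5 (adjusted p = 3.18e-06) and 1.33 ± 0.21 for RBM33 (adjusted p = 0.000328). SRRM1, a splicing coactivator that works in a complex with SRRM2, behaved differently. It lies on the plus strand of chromosome 1 (24631716 to 24673281; ENSG00000133226). SRRM1 had -0.40 ± 0.13 for ALKBH5 (adjusted p = 0.0196) and -0.17 ± 0.16 for RBM33 (adjusted p = 0.419) in the authors' deposited tables. The interval of SRRM1 (-0.68 to -0.11 for ALKBH5, -0.53 to 0.19 for RBM33) did not reach those of SRRM2, SON or PNISR in either of the authors' deposited tables.

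Of the CLK kinases, CLK1, CLK2 and CLK4 formed a close cluster and CLK3 stood apart in the ALKBH5 comparison. CLK1 and CLK4 are close relatives within the family. CLK1 lies on the minus strand of chromosome 2 (200853009 to 200864744; ENSG00000013441) and CLK4 on the minus strand of chromosome 5 (178602664 to 178630615; ENSG00000113240). CLK1 had 1.85 ± 0.17 for ALKBH5 (adjusted p = 9.11e-07) and 1.27 ± 0.19 for RBM33 (adjusted p = 0.000231) in the authors' deposited tables. CLK4 had 1.74 ± 0.25 for ALKBH5 (adjusted p = 3.94e-05) and 1.11 ± 0.29 for RBM33 (adjusted p = 0.00789) in the authors' deposited tables. The pair differed by less than either error in each comparison.

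CLK2, on the minus strand of chromosome 1 (155262868 to 155278491; ENSG00000176444), had 1.88 ± 0.13 for ALKBH5 (adjusted p = 1.17e-07) and 1.31 ± 0.15 for RBM33 (adjusted p = 4.16e-05) in the authors' deposited tables. CLK3, on the plus strand of chromosome 15 (74598500 to 74645414; ENSG00000179335), had 0.22 ± 0.17 for ALKBH5 (adjusted p = 0.262) and 0.74 ± 0.19 for RBM33 (adjusted p = 0.00784) in the authors' deposited tables. For ALKBH5 the CLK3 interval of -0.13 to 0.58 ended below those of the other CLK mRNAs, the lowest of which began at 1.21 (CLK4), in the authors' deposited table. For RBM33 the CLK3 interval of 0.31 to 1.17 overlapped all 3 of theirs. There 4 of 4 CLK mRNAs were called positive in the authors' deposited table, against 24.0% of all genes. CLK3 and CLK4 were not called for RBM33 under a stricter adjustment (Benjamini-Yekutieli), nor CLK3 with a minimum of 1 log2 unit. Whether reads shared by these related genes were dropped or split is not given in the sources used here. Values of CLK1 to CLK4 could therefore mix over any near-identical stretches, which were not looked for.

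The SRPK kinases were on the other side of 0. SRPK1, on the minus strand of chromosome 6 (35832966 to 35921342; ENSG00000096063), had -1.15 ± 0.13 for ALKBH5 (adjusted p = 7.15e-06) and -0.92 ± 0.15 for RBM33 (adjusted p = 0.000425) in the authors' deposited tables. These are 2.22-fold and 1.90-fold differences in the direction opposite to that of PNISR. SRPK2, on the minus strand of chromosome 7 (105110704 to 105399308; ENSG00000135250), had -0.25 ± 0.12 for ALKBH5 (adjusted p = 0.0915) and -0.19 ± 0.15 for RBM33 (adjusted p = 0.314) in the authors' deposited tables. The SRPK1 and SRPK2 intervals did not overlap in either comparison: SRPK1 ended at -0.86 and SRPK2 began at -0.51 for ALKBH5, and the matching bounds were -0.59 and -0.52 in the RBM33 comparison of the authors' deposited tables. Of the CLK kinases CLK3 came closest to the SRPK kinases: its interval overlapped that of SRPK2 for ALKBH5 (-0.13 to 0.58 for CLK3, -0.51 to 0.01 for SRPK2) and not for RBM33 (0.31 to 1.17 and -0.52 to 0.14) in the authors' deposited tables.

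Set side by side, the signs of all 10 were the same in both of the authors' deposited tables, and 7 were called with the same sign in both, 6 positive and 1 negative (SRPK1). Over all genes 45.2% were called with the same sign in both of the authors' deposited tables, 21.5% positive and 23.7% negative. The size of the value was larger for ALKBH5 in 8 of 10, the exceptions being SRRM2 and CLK3. The largest gaps, ALKBH5 minus RBM33, were 0.63 for CLK4, 0.58 for CLK1, 0.58 for CLK2 and -0.52 for CLK3 in the authors' deposited tables. The intervals of the 2 comparisons overlapped for all 10 mRNAs. Shares over all genes were not worked out for equal signs, larger sizes or overlapping intervals. Whether these counts are particular to the 10 mRNAs is therefore not known. The difference between baits was not tested, since no value per library is at hand and it is not stated whether the comparisons share libraries.

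These mRNAs are of moderate to high abundance. Average log2 CPM ran from 4.45 (CLK3) to 10.08 (SRRM2) for ALKBH5 and from 4.68 to 9.78 for RBM33 in the authors' deposited tables, and every one exceeded the median of all genes (4.05 in both). Per kilobase of listed gene length, the order of average log2 CPM in the authors' deposited table for ALKBH5 was SRRM2 (6.38), SRRM1 (5.70), SRPK1 (5.56), SON (4.49), CLK2 (4.09), PNISR (3.90), SRPK2 (3.37), CLK1 (3.15), CLK4 (1.88) and CLK3 (0.10). The CLK3 level is spread over a long listed gene, as described with its neighbours. No spread over libraries is known for these levels, so neighbours in that order cannot be told apart. The 4 mRNAs of lowest average log2 CPM were those of the CLK kinases, all with values above 0, and the 3 mRNAs with values below 0 were more abundant than these in both of the authors' deposited tables. SRRM2 and SRRM1, next to each other in level per kilobase, had log2 fold changes of 1.65 and -0.40 in the authors' deposited table for ALKBH5. Average log2 CPM of a gene differed between the authors' deposited tables by at most 0.30.

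**Figure D2:**
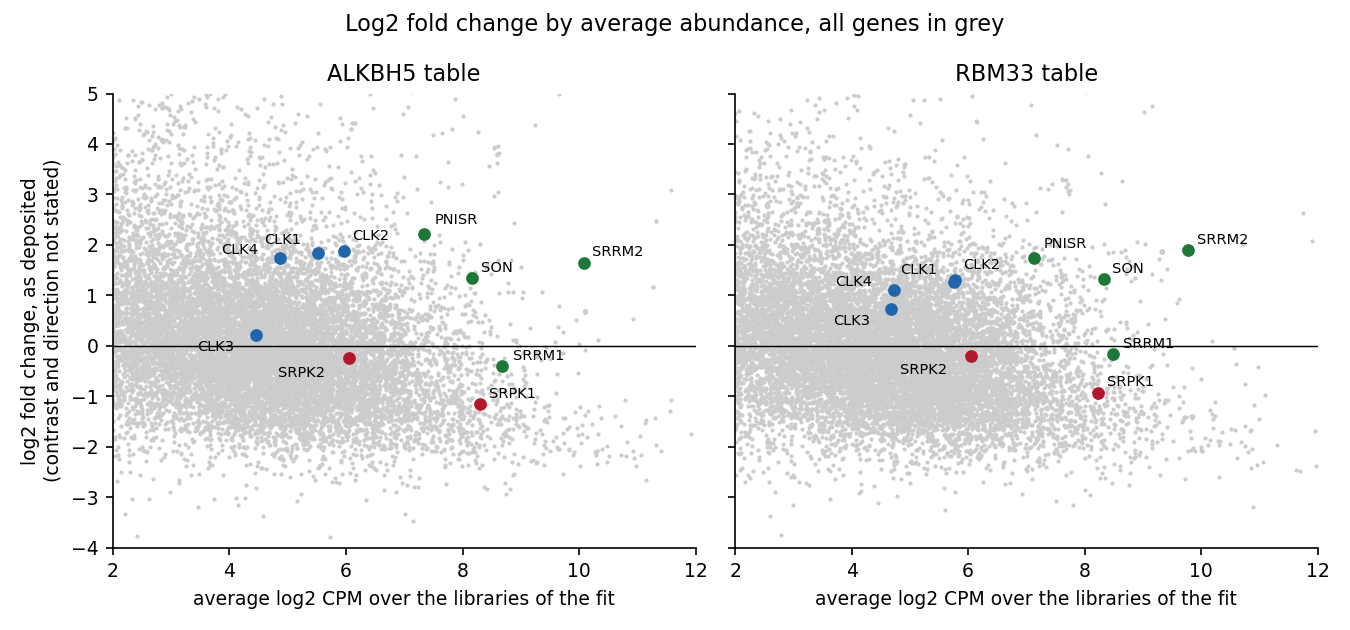
Log2 fold change (vertical axis, as deposited) against average log2 CPM (horizontal axis) for the 10 mRNAs over all genes in grey, in the ALKBH5 comparison (left) and the RBM33 comparison (right); speckle proteins are green, CLK kinases blue and SRPK kinases red, and genes outside the axes are not drawn. SRRM2, SON, PNISR, CLK1, CLK2 and CLK4 lie above 1 in both panels, and SRRM1, SRPK1 and SRPK2 lie below 0.

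Against other protein-coding genes, 6 of the 10 lay above percentile 80 in each of the authors' deposited tables. For ALKBH5 these were PNISR (percentile 96.5), CLK2 (94.5), CLK1 (94.2), CLK4 (93.3), SRRM2 (92.4) and SON (88.7) in the authors' deposited table. SRPK1 was at percentile 14.8 for ALKBH5 and 22.7 in the RBM33 comparison of the authors' deposited tables. Listed gene length is longer than 1 mRNA for many genes, and it moved with the values over all genes. When protein-coding genes were cut into 5 classes of about equal number by listed length, the ALKBH5 comparison of the authors' deposited tables had a median log2 fold change of -0.81 in the shortest class and 0.54 in the longest. For RBM33 the matching medians were -0.90 and 0.54 in the authors' deposited table. SRRM2 (12969 bases), SON (12752) and PNISR (10871) fell in the longest class, where 52.6% of genes were called positive for ALKBH5 and 46.8% in the RBM33 comparison of the authors' deposited tables. CLK2 is listed at 3658 bases. Its class had medians of -0.36 (ALKBH5) and -0.45 (RBM33), with 15.6% and 9.57% positive calls, in the authors' deposited tables. CLK1 (5170 bases) also lay far above the medians of its class, -0.07 and -0.13 in the authors' deposited tables. CLK3 has the longest listing of the 10 (20443 bases), and its listed gene runs beyond RefSeq on both sides, as described with its neighbours. The value of CLK3 was the lowest of the CLK mRNAs in both of the authors' deposited tables. SRRM1 and CLK4 are both listed at 7922 bases and stood on opposite sides of their class medians of 0.18 and 0.19 in the authors' deposited tables. The part of length in these values was not tested.

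**Figure D3:**
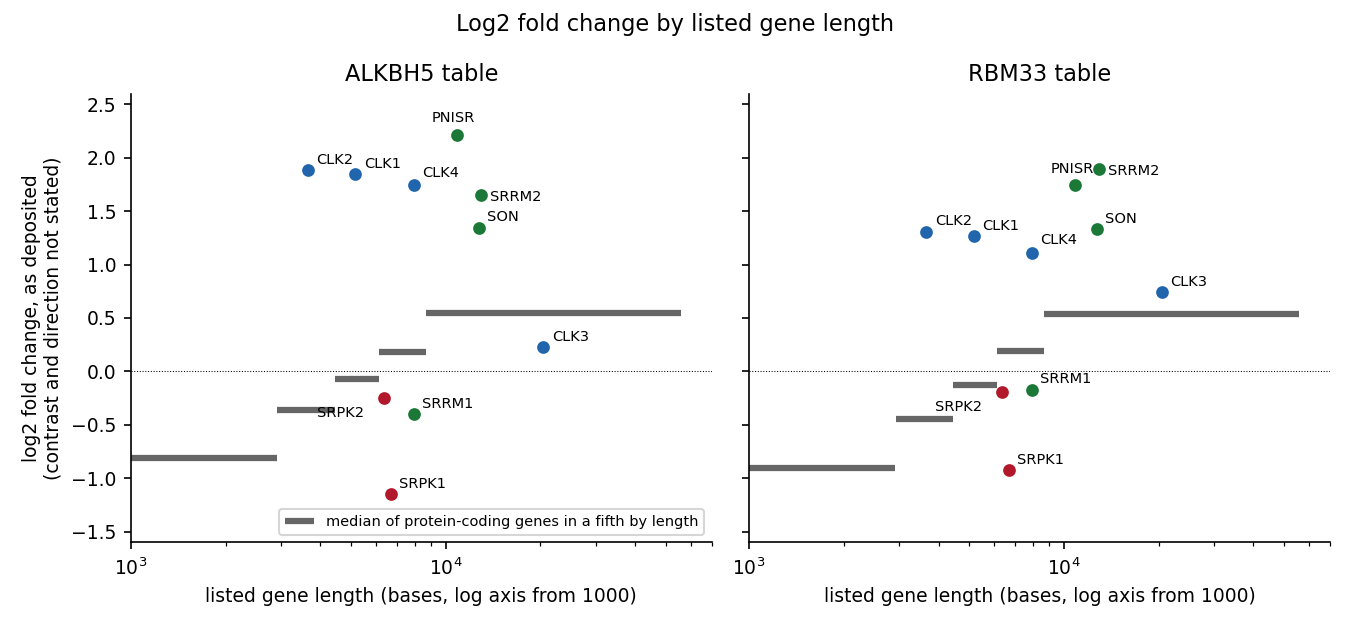
Log2 fold change (vertical axis, as deposited) against listed gene length in bases (horizontal axis, log scale) for the 10 mRNAs, in the ALKBH5 comparison (left) and the RBM33 comparison (right); grey bars are the medians of protein-coding genes in 5 length classes, speckle proteins are green, CLK kinases blue and SRPK kinases red. CLK1, CLK2 and CLK4 lie well above the bars at their length, while SRRM1, SRPK1 and SRPK2 lie below them.

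The listed gene of 6 of the 10 overlaps another listed gene, in 8 overlaps of which 7 are on the opposite strand, while SRRM1, CLK1, CLK4 and SRPK1 have no listed gene within 5000 bases. The kit marks strand, but the strand setting of the counting is not given in the sources used here. Without it, reads of such partners cannot be told apart. SRRM2 overlaps ELOB, a subunit of the elongin complex, by 1125 bases, and ELOB had -1.83 ± 0.22 for ALKBH5 (adjusted p = 1.83e-05) and -1.95 ± 0.18 for RBM33 (adjusted p = 1.25e-05) in the authors' deposited tables, opposite in sign to SRRM2. SRRM2-AS1, a noncoding RNA separated from SRRM2 by 25 bases and read the other way, had 2.71 ± 0.26 (adjusted p = 1.43e-06) and 2.16 ± 0.31 (adjusted p = 0.000161) in the authors' deposited tables for ALKBH5 and RBM33. AC092117.1, a noncoding RNA on the strand of SRRM2 at a distance of 4780 bases, had 2.63 ± 0.54 (adjusted p = 0.000848) and 2.53 ± 0.70 (adjusted p = 0.0104) in the authors' deposited tables. Average log2 CPM for ALKBH5 and RBM33 was 3.62 and 3.55 for SRRM2-AS1 and 1.95 and 1.12 for AC092117.1, below the median of all genes (4.05). The listed SRRM2 gene runs 1126 bases further to the right than SRRM2 in RefSeq (GRCh38.p14), a stretch that holds the whole overlap with ELOB.

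PNISR shares 410 bases with the noncoding RNA AL513550.1, which had 1.41 ± 0.31 for ALKBH5 (adjusted p = 0.00134) and 1.33 ± 0.34 for RBM33 (adjusted p = 0.00708) in the authors' deposited tables. COQ3, an enzyme of coenzyme Q synthesis read from the same strand as PNISR at a distance of 3854 bases, had -2.14 ± 0.27 (adjusted p = 1.37e-05) and -2.00 ± 0.26 (adjusted p = 7.69e-05) in the authors' deposited tables for ALKBH5 and RBM33. The values around PNISR were thus positive for the gene and its divergent partner and negative for the next gene on its strand. CLK2 overlaps HCN3, a pacemaker channel gene, by 1029 bases. The whole overlap lies in the 4987 bases by which the listed CLK2 gene runs beyond RefSeq. HCN3 had 2.63 ± 0.27 for ALKBH5 (adjusted p = 2.34e-06) and 1.99 ± 0.40 for RBM33 (adjusted p = 0.0015) in the authors' deposited tables, the same sign as CLK2. Average log2 CPM for ALKBH5 and RBM33 was 3.13 and 2.55 for HCN3 and 2.95 and 3.01 for AL513550.1, below the median of all genes (4.05). SCAMP3, 437 bases from the other end of CLK2 on its strand, had -0.67 ± 0.20 (adjusted p = 0.0108) and -0.88 ± 0.16 (adjusted p = 0.000837) in the authors' deposited tables.

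CLK3 shares 14857 bases with EDC3, an mRNA decapping factor, whose value of 0.23 ± 0.13 for ALKBH5 (adjusted p = 0.136) was close to that of CLK3 in the authors' deposited table, and which had 0.36 ± 0.17 (adjusted p = 0.0914) for RBM33. ARID3B, which encodes a DNA-binding protein and lies 368 bases from CLK3 on its strand, had 0.51 ± 0.12 (adjusted p = 0.00227) and 0.28 ± 0.14 (adjusted p = 0.118) in the authors' deposited tables for ALKBH5 and RBM33. The listed CLK3 gene runs 9872 bases further to the left and 15213 bases further to the right than CLK3 in RefSeq. The stretch to the right holds the whole overlap with EDC3. Listed genes also ran beyond RefSeq by 11586 bases for SRRM1, 4987 for CLK2, 4036 for SRPK2 and 3565 for CLK4. Reads from outside the RefSeq gene could thus be counted in the rows of these genes. SRPK2 shares 4316 bases with KMT2E, a SET domain gene with 0.61 ± 0.11 (adjusted p = 0.000293) and 0.72 ± 0.17 (adjusted p = 0.00359) in the authors' deposited tables, opposite in sign to SRPK2. Most of that overlap lies in the 4036 bases by which the listed SRPK2 gene runs beyond RefSeq.

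SON overlaps GART, a purine synthesis enzyme, by 454 bases and DONSON, a replication fork protein, by 17940 bases. Both had negative values, -0.57 ± 0.12 (adjusted p = 0.000852) and -0.45 ± 0.15 (adjusted p = 0.0175) for ALKBH5 in the authors' deposited table. For RBM33, GART had -0.60 ± 0.15 (adjusted p = 0.00661) and DONSON -0.11 ± 0.18 (adjusted p = 0.649) in the authors' deposited table. On the strand of SON the microRNA gene MIR6501 is counted as a row of its own, and its sequence is shown because it lies inside the SON gene, whose reads it may share. From RefSeq (GRCh38.p14, chr21:33550662-33550728, plus strand), with the 2 mature arms in capitals, it reads as follows.
MIR6501 hairpin: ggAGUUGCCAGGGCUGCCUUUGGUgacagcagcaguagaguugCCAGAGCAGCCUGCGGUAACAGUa
This row of 67 bases had 1.90 ± 0.40 for ALKBH5 (adjusted p = 0.00106) and 2.36 ± 0.57 for RBM33 (adjusted p = 0.00513) in the authors' deposited tables. Its intervals (1.03 to 2.76 and 1.10 to 3.62) overlapped those of SON. Reads of the SON transcript and of the microRNA precursor cannot be told apart in that row.

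**Figure D4:**
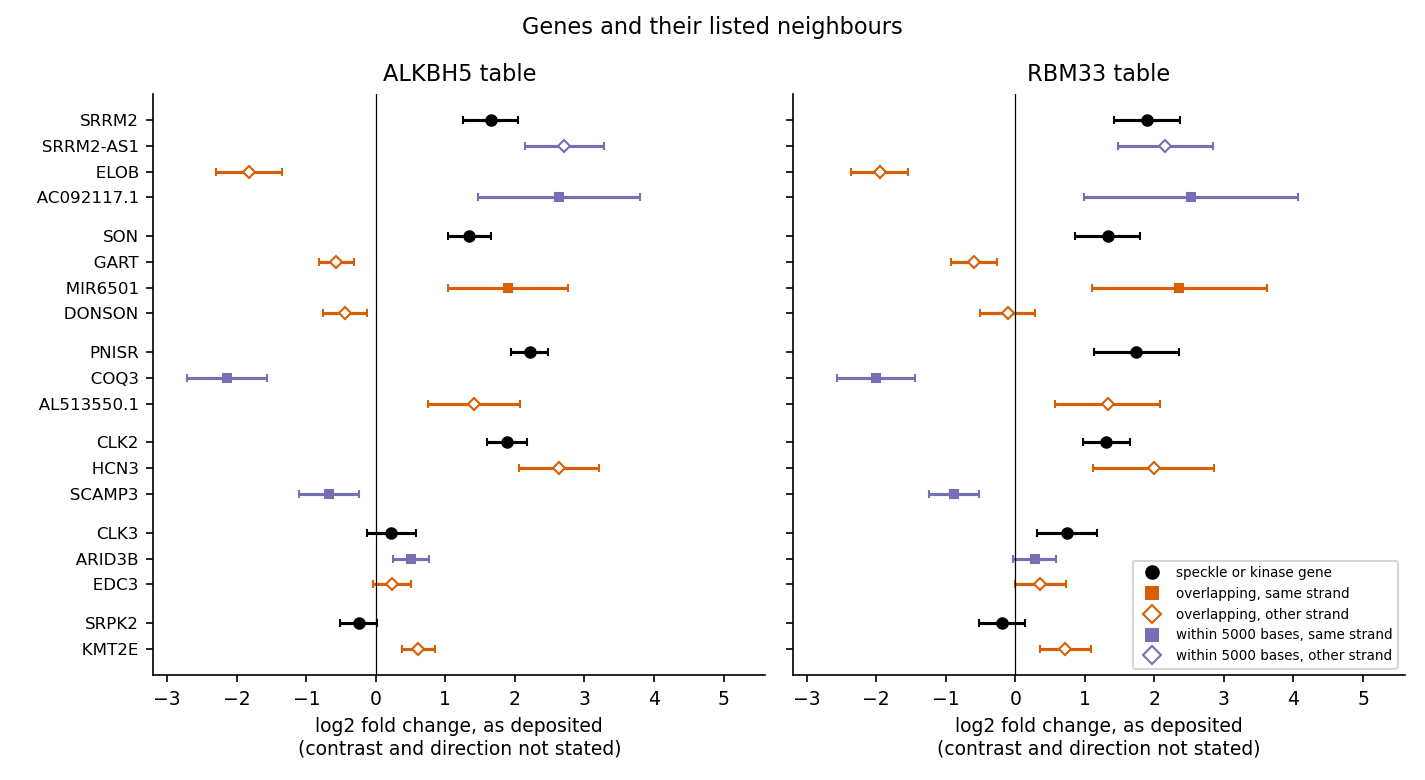
Log2 fold change (horizontal axis, as deposited) with approximate 95% interval for the 6 genes of the group that have a listed neighbour (black) and, under each, the genes that overlap it (orange) or lie within 5000 bases (purple); filled squares are on the same strand and open diamonds on the opposite strand. Around SRRM2, SON, PNISR and CLK2, which lie above 0, the neighbours ELOB, GART, DONSON, COQ3 and SCAMP3 lie below 0, while SRRM2-AS1, AC092117.1, MIR6501, AL513550.1 and HCN3 lie above it.

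Of 30 other speckle proteins and splicing proteins rich in serine and arginine, 10 were positive (33.3%) and 7 negative (23.3%) in the ALKBH5 comparison of the authors' deposited tables (median 0.02). These shares lie near the 30.5% and 29.1% over all genes. For RBM33, 12 were positive (40.0%) and 5 negative (16.7%), with a median of 0.31, against 24.0% and 27.0% over all genes of the authors' deposited table. CCNL2, a cyclin of speckles, led with 3.75 ± 0.17 (adjusted p = 7.19e-09) and 2.50 ± 0.28 (adjusted p = 7.09e-05) in the authors' deposited tables for ALKBH5 and RBM33. NKTR, a cyclophilin with serine and arginine repeats, followed for ALKBH5 at 2.06 (adjusted p = 5.23e-08), and SNRNP70, a protein of the U1 particle, for RBM33 at 2.14 (adjusted p = 7.88e-06), per the authors' deposited tables. The lowest called values were those of PPIG, another such cyclophilin, at -1.25 (adjusted p = 1.57e-06), and BCLAF1 at -0.89 (adjusted p = 2.83e-05) for ALKBH5 in the authors' deposited table. For RBM33 they were PPIG at -0.85 (adjusted p = 0.000744) and U2AF1, the splice site factor, at -0.73 (adjusted p = 0.00225), per the authors' deposited table.

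The SR proteins, which the CLK and SRPK kinases phosphorylate, had shares of calls near those of all genes. Of 12 SRSF mRNAs, 3 were positive (25.0%) and 4 negative (33.3%) for ALKBH5, beside 30.5% and 29.1% over all genes (median of the 12 at -0.03, authors' deposited values). In the RBM33 comparison 2 were positive (16.7%) and 3 negative (25.0%), with a median of 0.09, against 24.0% and 27.0% of all genes in the authors' deposited table. SRSF5 was the highest, at 1.37 (adjusted p = 3.98e-06) and 0.95 (adjusted p = 0.000901), per the authors' deposited tables for ALKBH5 and RBM33. SRSF10 (0.46, adjusted p = 0.011) was next for ALKBH5 and SRSF2 (0.48, adjusted p = 0.0176) for RBM33 in the authors' deposited tables. SRSF9 had -1.21 (adjusted p = 4.51e-06) and -1.39 (adjusted p = 2.82e-05), and SRSF12 -1.22 (adjusted p = 0.000606) and -1.05 (adjusted p = 0.00688), in the authors' deposited tables for ALKBH5 and RBM33.

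Other kinases that act on splicing or speckles had 8 of 13 listed mRNAs positive and 0 negative in each of the authors' deposited tables (medians 0.46 for ALKBH5 and 0.61 for RBM33; edgeR, adjusted p under 0.05). None of the 13 was negative at an unadjusted p under 0.05 either. The positive share was 61.5%, beside 30.5% of all genes for ALKBH5 and 24.0% for RBM33, where 29.1% and 27.0% were negative. Listed lengths of the 13 ran from 3192 bases (DYRK1B) to 26763 (DYRK1A), and several fell in the longest length class. In that class 52.6% of protein-coding genes were positive for ALKBH5 and 46.8% for RBM33, with 15.4% and 12.7% negative. The part of length in the share of these kinases was not tested. PRPF4B, a kinase of the spliceosome, had 1.67 (adjusted p = 8.99e-08) for ALKBH5, and CDK12, which phosphorylates RNA polymerase II, had 1.07 for ALKBH5 (adjusted p = 2.47e-06) and 1.26 for RBM33 (adjusted p = 4.55e-05) in the authors' deposited tables. CDK13, its relative, had 1.14 (adjusted p = 0.000149) for RBM33 in the authors' deposited table. Protein phosphatase 1 removes phosphates that these kinases add. Its mRNAs had 4 negative and 1 positive of 5 in each of the authors' deposited tables, with medians of -1.16 and -1.12. The shares over all genes were 29.1% negative and 30.5% positive for ALKBH5, and 27.0% and 24.0% for RBM33. The catalytic subunits PPP1CB (-1.47, adjusted p = 2.9e-07) and PPP1CA (-1.29, adjusted p = 2.96e-05) were the lowest for ALKBH5 in the authors' deposited table. They were the lowest for RBM33 too, at -1.59 (adjusted p = 1.38e-05) and -1.18 (adjusted p = 6.59e-05), per the authors' deposited table. The nuclear targeting subunit PPP1R10 was the positive one, at 1.14 (adjusted p = 2.15e-05) and 1.49 (adjusted p = 4.18e-05), per the authors' deposited tables for ALKBH5 and RBM33.

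Proteins of paraspeckles, neighbouring bodies built on a noncoding RNA, had 1 positive and 3 negative of 5 mRNAs for ALKBH5 (median -0.56) and 1 and 2 for RBM33 (median -0.08) in the authors' deposited tables. Beside these stand 30.5% positive and 29.1% negative over all genes for ALKBH5 and 24.0% and 27.0% for RBM33. RBM14 (1.73 and 2.01) was positive, and HNRNPK (-1.36 and -1.43) and NONO (-1.02 and -0.59) were negative, for ALKBH5 and RBM33 in the authors' deposited tables. Since CLK1 and CLK4 are known for introns that stay in the nuclear transcript, 3 other mRNAs known for such introns were set beside them. OGT, the enzyme that adds GlcNAc to proteins, had 4.24 ± 0.18 for ALKBH5 (adjusted p = 5.75e-09) and 3.43 ± 0.84 for RBM33 (adjusted p = 0.04) in the authors' deposited tables. MAT2A, which makes the methyl donor S-adenosylmethionine, had 3.11 ± 0.19 (adjusted p = 4.92e-08) and 3.06 ± 0.26 (adjusted p = 7.37e-06) in the authors' deposited tables for ALKBH5 and RBM33. OGA, the enzyme that removes GlcNAc, had 1.32 ± 0.12 (adjusted p = 1.07e-06) and 1.01 ± 0.15 (adjusted p = 0.00017) in the authors' deposited tables. All 3 of this short list were positive for both baits, beside 30.5% positive over all genes for ALKBH5 and 24.0% for RBM33. The list was chosen with earlier results of these data known, so this count is no independent evidence. The values of OGT and MAT2A exceeded those of every CLK mRNA, but the error of OGT for RBM33 was wide (0.84). The tables count whole genes, so intron reads and exon reads cannot be told apart for any of these mRNAs.

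**Figure D5:**
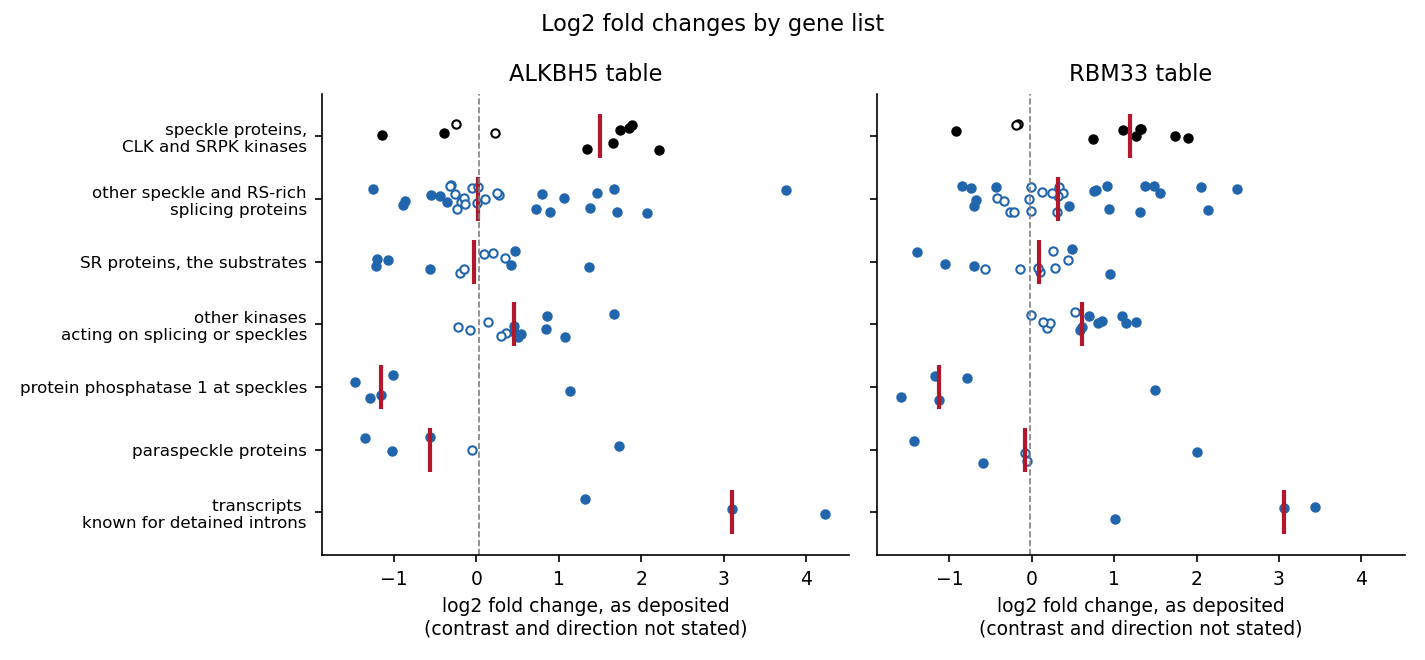
Log2 fold change (horizontal axis, as deposited) of each gene, by list, in the ALKBH5 comparison (left) and the RBM33 comparison (right); filled points have an adjusted p under 0.05, red bars are list medians and the dashed line is the median of all genes. The top row, the 10 mRNAs described here, has medians of 1.50 and 1.19, while the SR protein row straddles 0 and the phosphatase row lies mostly below it.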

How the data were processed

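RIP-seq libraries of cells labelled UM-SCC-1 were made by the authors with a stranded total RNA kit from fragmented RNA, per the labels' protocols. Reads were trimmed, aligned to hg38, counted and tested by the authors with tools that include, per the submitters' processing notes, HISAT2 2.1.0, cutadapt 1.18, edgeR 3.24.3, Subread 1.6.4 and featureCounts. Annotation, low-count filter, strand setting and contrast are not stated. The authors' deposited tables hold, per gene, an average log2 CPM and a log2 fold change. The F statistic is a score and the p-value belongs to it, per the file headers. The adjusted p-value as deposited was recomputed over all 16324 genes with the Benjamini-Hochberg method and was the same.

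With no value per library no model was fitted. Approximate standard errors are the size of the log2 fold change over the square root of F, with degrees of freedom solved from F and p; they neglect the prior count in the authors' edgeR fold change. This was tested on simulated data (Python 3.11.15, SciPy 1.17.1). Called means an adjusted p under 0.05. The members and the 6 companion lists were chosen with earlier results of these data known, and 1 gene of the paraspeckle list is not reported here. All members are named, and of each list the 2 highest and 2 lowest called values in a table (all 3 of the intron list), plus genes overlapping a member or within 5000 bases.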

Additional observations from a re-analysis of the deposited data

How the results depend on the processing

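The 10 mRNAs were counted again under 7 other settings. The count of negative calls for ALKBH5, 2 as reported, was 1 at an adjusted p under 0.01, 1 with a minimum of 1 log2 unit and 1 with the Benjamini-Yekutieli adjustment, in each case through loss of SRRM1. For RBM33 the negative count was 0 with a minimum of 1 log2 unit, where SRPK1 was lost (edgeR; 1 was negative at an unadjusted p under 0.05). Positive counts stayed within 1.5 times: 6 for ALKBH5 throughout, and for RBM33 6 with a minimum of 1 log2 unit (without CLK3) and 5 under Benjamini-Yekutieli (without CLK3 and CLK4). Restricting to protein-coding genes or to genes of at least median abundance changed no call. Centring on either median left the adjusted p-values as deposited. The medians removed, from -0.13 to 0.03, were smaller in size than any called value, so centring could change no call. No log2 fold change, called or not, changed sign. Centring on the protein-coding median brought the uncalled RBM33 values of SRRM1 and SRPK2 to -0.04 and -0.06, against -0.17 and -0.19 as deposited. No paired analysis was possible because per-library values are not part of the tables; leaving out replicates was not run for the same reason.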
